A study of Camellia sinensis with 6 samples.

Results

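Chloroplasts translate their own messenger RNAs on bacterial-type ribosomes made of a small 30S and a large 50S subunit. The genes for ribosomal proteins of this plastid ribosome were chosen by name from the deposited gene table, as gene models described as a 30S or 50S ribosomal protein whose protein name also carries the word chloroplastic. The rule gave 65 of 40118 gene models, under 41 different protein names, and used no measured value. Of these, 44 lie on the numbered assembly sequences 1 to 15 and 21 on other assembly sequences. RNA was sequenced from young shoots of the tea plant (Camellia sinensis) cultivar Zhonghuang 2, which yellows in the cold. All plants shared 1 month at 22 °C before being moved to 12 h days and 12 h nights at 1 of 2 temperatures. The high-temperature group (26 °C in the light, 22 °C in the dark, called warm below) is the control with green shoots, and the low-temperature group (18 °C in the light, 14 °C in the dark, called cold below) was sampled once its leaves had yellowed. Each group has 3 libraries and its own growth chamber, so chamber and temperature cannot be told apart. The labels do not tie libraries to separate plants, so every p-value here reflects only how far libraries of a group scatter, and that scatter may be technical.

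In flowering plants the genes for these proteins are divided between 2 genomes. The plastid genome keeps a minority of them, such as those for S3, S8 and L14, and the nuclear genome holds the rest, whose products are made in the cytosol and imported. A few further proteins of the chloroplast ribosome, called plastid-specific, have no counterpart in most bacterial ribosomes. Plastid ribosomes make core subunits of the photosystems and the large chain of Rubisco, and plants that lack enough of them are typically pale. The members were sorted by protein number into 13 gene models of nuclear-encoded 30S kinds, 33 of nuclear-encoded 50S kinds, 8 plastid-specific and 11 of kinds that most flowering plants encode in the plastid.

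Libraries held 15202546 to 15642015 counts, of which the members took 0.477% to 0.506% at high and 0.624% to 0.651% at low temperature. High-temperature replicate 2 stood apart from the other libraries of its group, with an average chi-square per gene model of 31.0 and 26.7 against them, where those libraries differed from each other by 5.35. Levels below are CPM, read counts scaled to a common library size with the TMM method, and changes are log2 of low over high temperature with their standard errors (SE), tested with edgeR's quasi-likelihood test over all 26767 gene models with enough counts and called at a Benjamini-Hochberg adjusted p under 0.05. Bulk RNA cannot tell fewer cells of a type from less RNA per cell.

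Of 60 members tested, 20 rose in the yellow shoots of the cold chamber, 2 fell and 38 did not pass the test. All that rose were of nuclear-encoded or plastid-specific kinds, and both that fell were of plastid-encoded kinds. The background over all gene models tested was 9.27% called higher and 9.65% called lower. Among the members the share called higher was 33.3%, with a median change of 0.34 on the log2 scale, against -0.01 over all gene models tested. All low-temperature libraries lay above all high-temperature libraries in 29 members, which is 48.3% of those tested against a background of 18.1%, and below them in 5, against a background of 18.4%. The log2 change was above 0 in 41 of the 60, against 49.2% of all gene models tested. The summed level of the 65 members was 5153, 4354 and 5171 CPM in the high-temperature libraries and 6749, 6505 and 6309 CPM in the low-temperature ones, so the groups did not overlap. The number that rose was 11 without low-temperature replicate 2 and 13 without low-temperature replicate 3, when the calls over all gene models also dropped, from 2480 to 1267 and 1344 higher. Without high-temperature replicate 2 it was 20.

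**Figure D1:**
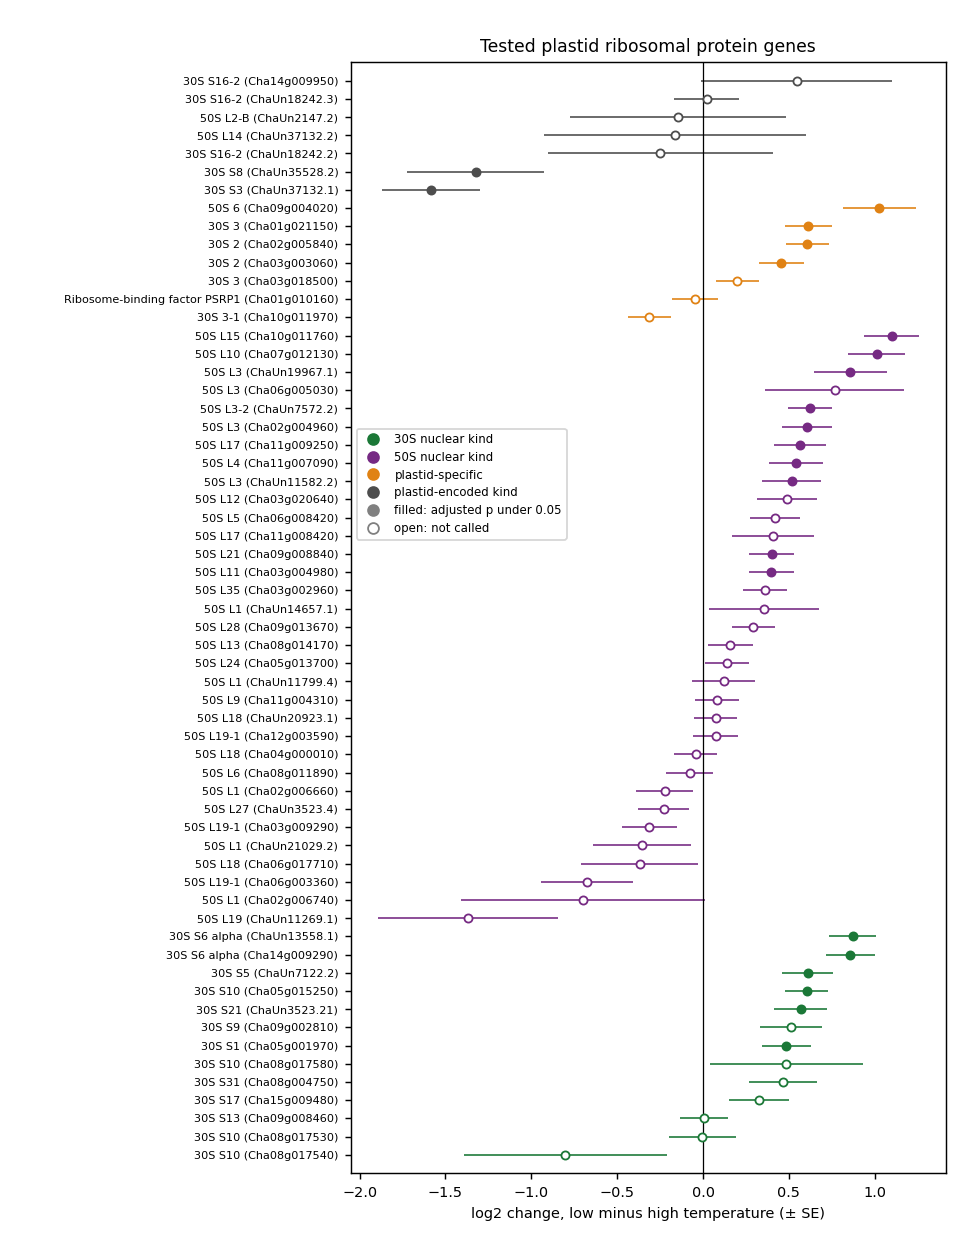
Log2 change of each of the 60 tested gene models (low minus high temperature, x axis, bars ± SE), grouped by class and ordered by change. Filled points passed the test: 20 to the right of 0, all of nuclear or plastid-specific kinds, and 2 to the left, S8 and S3.

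The large-subunit protein L15 (Cha10g011760, sequence 10, 116846241 to 116855342, plus strand) showed the largest rise of all members. Its level was 234, 161 and 224 CPM at high temperature and 442, 444 and 438 CPM at low temperature. The cold libraries were nearly equal and all lay far above the warm ones, with a log2 change of 1.10 ± 0.16 (edgeR, adjusted p = 0.000154). L10 (Cha07g012130, sequence 7, 135894457 to 135901469, minus strand) anchors the flexible stalk of the large subunit, where elongation factors dock. It had 129, 79.0 and 128 CPM in the warm and 225, 224 and 229 CPM in the cold. The groups stood apart there too, by 1.01 ± 0.17 (edgeR, adjusted p = 0.000521).

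L12 (Cha03g020640), the mobile stalk protein that L10 holds, did not pass the test (log2 change 0.49 ± 0.17, edgeR adjusted p = 0.0588), although its 3 cold libraries, at 195 to 238 CPM, lay above the warm ones at 106 to 178 CPM. L11 (Cha03g004980), at the base of the stalk, rose from 152 ± 5.95 to 200.4 ± 12.4 CPM (SD, n = 3). L21 (Cha09g008840) rose from 99.3 ± 9.76 to 131 ± 4.16 CPM. Of 15 alternative fits, the call of L11 held in 6 and that of L21 in 5.

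L3, which folds ribosomal RNA early in bacterial assembly and reaches toward the peptidyl transferase centre, is named by 4 gene models, of which 3 rose. The most abundant (Cha02g004960, sequence 2, 43498757 to 43509438, minus strand) had 132, 97.5 and 136 CPM in the warm and 190, 198 and 169 CPM in the cold, a change of 0.61 ± 0.15 (edgeR, adjusted p = 0.00827). It lost its call without low-temperature replicate 2 (adjusted p = 0.0574), the highest p over its 15 alternatives, whose lowest was 0.000957. A shorter model (ChaUn19967.1, sequence 9644, 3702 to 18179, minus strand) went from 5.84 ± 0.912 to 10.6 ± 0.852 CPM. L3-2 (ChaUn7572.2, sequence 28713, 20495 to 28308, minus strand), a separate name for a related protein, rose from 41.6 ± 3.63 to 64.1 ± 1.14 CPM. All 3 of these models had cold libraries above the warm ones, and the third L3 model that rose (ChaUn11582.2) did so by 0.52 ± 0.17.

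L17 (Cha11g009250) and L4 (Cha11g007090), which in bacteria line or flank the tunnel through which the new protein leaves, rose by 0.57 ± 0.15 and 0.54 ± 0.16. Together with L15, L10, the 3 models of L3, L3-2, L11 and L21 they make up the 10 of 33 nuclear-encoded 50S models that rose. That share is 30.3%, against a background of 9.27%. None of the 33 fell, and the 23 that did not pass ranged from -1.37 to 0.77. The lowest 3 changes in that range were those of L19 (ChaUn11269.1), with no more than 2.52 CPM in any library, an L1 model (Cha02g006740), with no more than 1.43 CPM, and an L19-1 model (Cha06g003360), with no more than 6.72 CPM. All cold libraries lay below the warm ones in L19 and this L19-1 model, and the groups overlapped in the L1 model.

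In 5 of the 23 nuclear-encoded 50S models that did not pass the test, the cold libraries all lay above the warm ones. Over all gene models tested, called or not, 18.1% had this order. The 5 were L12 as above, L5 (Cha06g008420), L35 (Cha03g002960), L28 (Cha09g013670) and L24 (Cha05g013700). L5, which binds 5S ribosomal RNA in bacteria, had 213, 169 and 204 CPM in the warm and 231, 295 and 257 CPM in the cold (0.42 ± 0.15, edgeR adjusted p = 0.0546), and L35 had 68.9 ± 6.54 and 88.5 ± 2.04 CPM (edgeR adjusted p = 0.0537). L28 had a change of 0.29 ± 0.12, and L24, which starts assembly of the large subunit in bacteria, one of 0.14 ± 0.13.

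The groups overlapped in L13 (Cha08g014170), L9 (Cha11g004310) and L6 (Cha08g011890), with log2 changes of 0.16 ± 0.13, 0.08 ± 0.13 and -0.08 ± 0.14. L18, a partner of 5S ribosomal RNA, had a log2 change of -0.01 ± 0.13 when the counts of its 3 models were summed, and L1, of the stalk on the side where spent tRNA leaves, had 0.05 ± 0.14 over its 5 models. L19-1 at the interface between subunits had -0.02 ± 0.13 over 3 models. L27 (ChaUn3523.4), whose bacterial counterpart reaches the peptidyl transferase centre, had 163, 199 and 179 CPM in the warm and 183, 135 and 143 CPM in the cold, so its groups overlapped. The S21 gene, which rose, lies on the same assembly sequence as L27. By the deposited FPKM, which scale fragments to coding length and library size, the 2 highest of the nuclear-encoded 50S class, which leaves out the plastid-specific protein 6, were L15, at 244 ± 48.3 in the warm and 525 ± 2.07 in the cold, and L19-1 (Cha12g003590), at 307 ± 34.1 and 325 ± 15.8. On this per-length scale, as means, L15 was thus below L19-1 in the warm and above it in the cold. The coding length of this L19-1 model is 336 bases, against 831 for L15. In CPM, which leave length out, L15 was above it in both groups, at 206 against 105 in the warm and 441 against 111 in the cold.

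Small-subunit proteins of nuclear-encoded kinds had 6 of 13 models that rose (46.2%, against a background of 9.27%) and none that fell, with a median change of 0.49. S6 alpha, a protein of the platform, is named by 2 models and both rose. The longer (Cha14g009290, sequence 14, 65044663 to 65060179, minus strand) had 194, 163 and 197 CPM in the warm and 313, 361 and 331 CPM in the cold, a change of 0.86 ± 0.14 (edgeR, adjusted p = 0.000515). The shorter (ChaUn13558.1, sequence 3309, 269 to 779, plus strand), with a coding length of 306 bases against 609, had 29.4, 27.5 and 29.8 CPM against 46.6, 55.7 and 56.5 CPM. Both models thus had groups that did not overlap, by nearly the same log2 change, and reads may be shared between them.

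S5 (ChaUn7122.2, sequence 28437, 42792 to 56051, minus strand), which in bacteria helps to keep decoding accurate, had 144, 114 and 166 CPM in the warm and 224, 207 and 216 CPM in the cold (log2 change 0.61 ± 0.15, edgeR adjusted p = 0.00813). S10 (Cha05g015250, sequence 5, 156600626 to 156603957, minus strand), of the head of the subunit, had 63.1, 69.0 and 66.1 CPM against 92.3, 109 and 99.6 CPM, a change of 0.60 ± 0.13. In both genes every cold library lay above every warm one. The other 3 models named S10 lie near each other on sequence 8, had at most 12.1 CPM in any library and were not called. S21 (ChaUn3523.21) and S1 (Cha05g001970), the latter a messenger RNA-binding protein in bacteria, rose by 0.57 ± 0.16 and 0.49 ± 0.14, and the call of S1 held in 10 of 15 alternatives.

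The 2 small-subunit members with the highest FPKM were not called. S17 (Cha15g009480, sequence 15, 98299166 to 98312180, plus strand), a primary binder of 16S ribosomal RNA, had 613, 410 and 610 CPM in the warm and 737, 661 and 648 CPM in the cold (log2 change 0.33 ± 0.17, edgeR adjusted p = 0.206). S31 (Cha08g004750), which the deposited description also calls plastid-specific protein 4, had 258, 147 and 280 CPM against 355, 304 and 289 CPM (0.47 ± 0.20, edgeR adjusted p = 0.114). In both, high-temperature replicate 2 was the lowest library, and the cold libraries lay above all warm ones. S9 (Cha09g002810), of the head of the subunit, had 64.6, 39.6 and 70.3 CPM against 95.3, 78.5 and 75.3 CPM, a change of 0.51 ± 0.18 just outside the threshold (edgeR adjusted p = 0.0598). It too had no overlap between groups. S13 (Cha09g008460), which bridges the head to the large subunit, had a change of 0.00 ± 0.14.

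**Figure D2:**
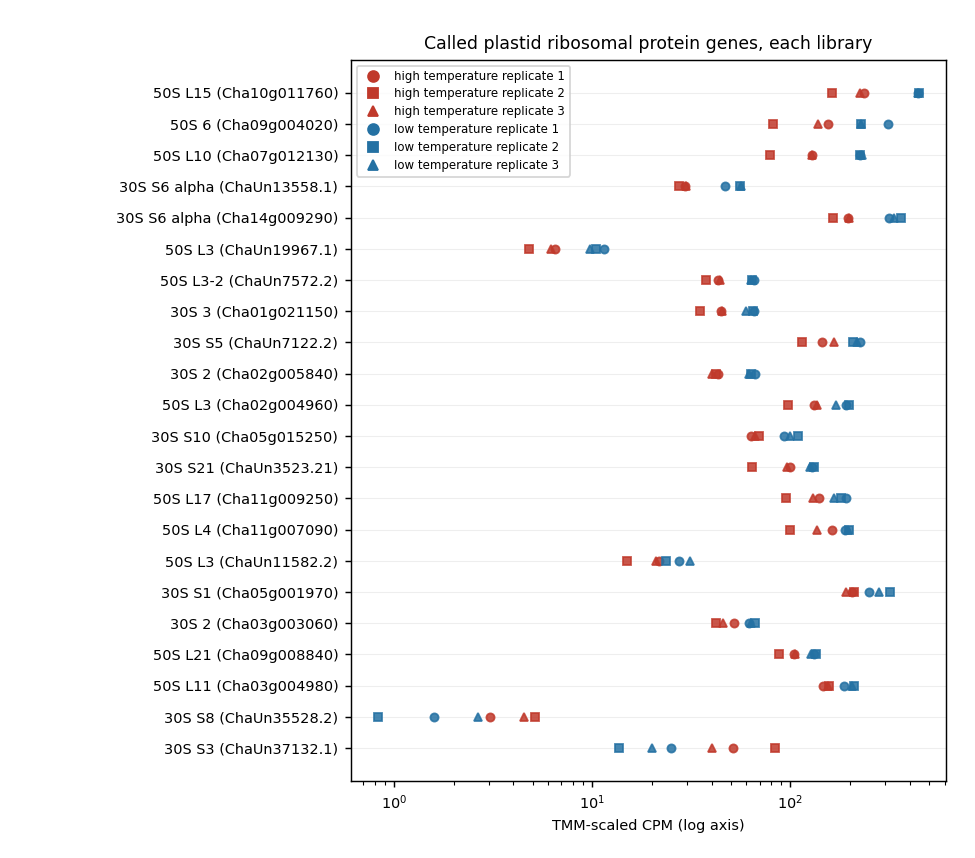
TMM-scaled CPM (x axis, logarithmic) of the 22 called gene models in each of the 6 libraries, ordered by log2 change. Red marks the high- and blue the low-temperature libraries, and the marker shape gives the replicate. In the upper 20 genes every blue point lies to the right of every red one, and in S8 and S3 to the left.

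Among plastid-specific proteins 4 of 7 tested models rose (57.1%, against a background of 9.27%) and none fell. This count leaves out S31, which was sorted by its number among the 30S kinds and was not called. Protein 6 of the large subunit (Cha09g004020, sequence 9, 54702847 to 54703496, plus strand) had 155, 82.0 and 138 CPM in the warm and 312, 227 and 226 CPM in the cold. Every cold library was above every warm one, with a change of 1.03 ± 0.21 (edgeR, adjusted p = 0.00425). Protein 2 of the small subunit, an RNA-binding protein, is named by 3 models. Cha02g005840 (sequence 2, 53849100 to 53871003, minus strand) had 43.0, 42.3 and 40.3 CPM in the warm and 66.4, 63.4 and 61.4 CPM in the cold (0.61 ± 0.13, edgeR adjusted p = 0.00274). The model Cha03g003060 (sequence 3, 30994520 to 30995373, plus strand) rose by 0.46 ± 0.13, from 46.6 ± 5.05 to 63.9 ± 2.29 CPM, and kept its call in 11 of 15 alternatives. The third model (ChaUn26992.1) had at most 0.384 CPM and was not tested.

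Protein 3 of the small subunit is named by 2 models and its relative 3-1 by 1, and 1 of the 3 rose. Cha01g021150 (sequence 1, 190661457 to 190662365, minus strand) had 44.5, 34.9 and 44.9 CPM in the warm and 65.8, 64.7 and 59.7 CPM in the cold (0.61 ± 0.14, edgeR adjusted p = 0.00469). Cha03g018500, the most abundant of them, had 125 ± 4.96 and 144 ± 1.76 CPM (0.20 ± 0.13, edgeR adjusted p = 0.288). The 3-1 model (Cha10g011970) had 54.4, 56.4 and 54.1 CPM in the warm and 44.7, 43.7 and 44.5 CPM in the cold. Its groups did not overlap, and the change of -0.31 ± 0.12 did not pass (edgeR adjusted p = 0.0903).

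PSRP1 (Cha01g010160) is related to bacterial factors that hold ribosomes inactive and is not a permanent part of the ribosome. It had 46.8, 56.8 and 55.7 CPM in the warm and 48.0, 50.9 and 55.5 CPM in the cold. The groups overlapped, and the change was -0.05 ± 0.13.

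Among 7 tested gene models of plastid-encoded kinds, S3 and S8 fell (28.6%, against a background of 9.65%) and no model rose. The other 4 of the 11 were not tested because their counts were too low. S3 (ChaUn37132.1, sequence 26839, 1978 to 4193, plus strand), a protein at the entry of the messenger RNA channel, had 51.6, 83.4 and 40.3 CPM in the warm and 24.9, 13.6 and 19.96 CPM in the cold. All cold libraries were below all warm ones, with a log2 change of -1.58 ± 0.29 (edgeR, adjusted p = 0.00455), the largest fall of any member. S8 (ChaUn35528.2, sequence 25228, 3118 to 4653, minus strand), a primary binder of the central domain of 16S ribosomal RNA, had 45, 86 and 69 counts in the warm and 24, 13 and 41 in the cold (-1.32 ± 0.40, edgeR adjusted p = 0.0262). Here the groups did not overlap either. Its call held in 10 of 15 alternatives, with an adjusted p between 0.0107 and 0.134, and was lost without high-temperature replicate 2 or 3, without low-temperature replicate 1 or 2, and with unfiltered FPKM.

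In both S3 and S8 high-temperature replicate 2 was the highest of all libraries, the opposite of its place in L15, L10 and S6 alpha. Summed over the 11 models, the plastid-encoded kinds stood at 70.1, 106 and 58.3 CPM in the warm and 44.7, 27.9 and 38.2 CPM in the cold. They amounted to 1.14% to 2.51% of the summed level of all other members in the warm and 0.431% to 0.667% in the cold. Both figures include S16-2, a nuclear gene in Arabidopsis. Without it the sums were 56.4, 90.7 and 46.9 CPM in the warm and 28.7, 15.7 and 24.2 CPM in the cold. Whether the library preparation selected RNA by poly(A) tails, which most plastid transcripts lack, is not given in the sources used here. The genome from which the reads of these models came was not tested.

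The neighbours of these models on their assembly sequences give some context. L14 (ChaUn37132.2) lies beside S3 on the same strand, but had at most 1.18 CPM. L2-B (ChaUn2147.2) had 0.384 to 1.74 CPM and a change of -0.15 ± 0.63, and its assembly sequence also carries models named for proteins of the mitochondrial genome, such as cytochrome b and subunits of cytochrome c oxidase. Of 13 other tested models on that sequence 9 fell and none rose, with a median of -2.25, against the background of 9.65% called lower. The single other model tested beside an S7 model (ChaUn24765.3) fell by 1.90 on the log2 scale, and that beside an L14 model (ChaUn37510.1) fell by 2.17. The one beside the S16-2 models ChaUn18242.2 and ChaUn18242.3 rose by 0.69. A pair of models, 1 each named S7 (Cha01g015650) and L14 (Cha01g024410), had no count in any library, where 3 counts would be 0.18 to 0.204 CPM. S16-2, which is named for both chloroplast and mitochondrion and belongs by its number to a plastid-encoded kind, is a nuclear gene in Arabidopsis. Its most abundant model (ChaUn18242.3) had 11.8 ± 1.72 CPM in the warm and 12.0 ± 1.24 CPM in the cold, and none of its 3 models was called.

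**Figure D3:**
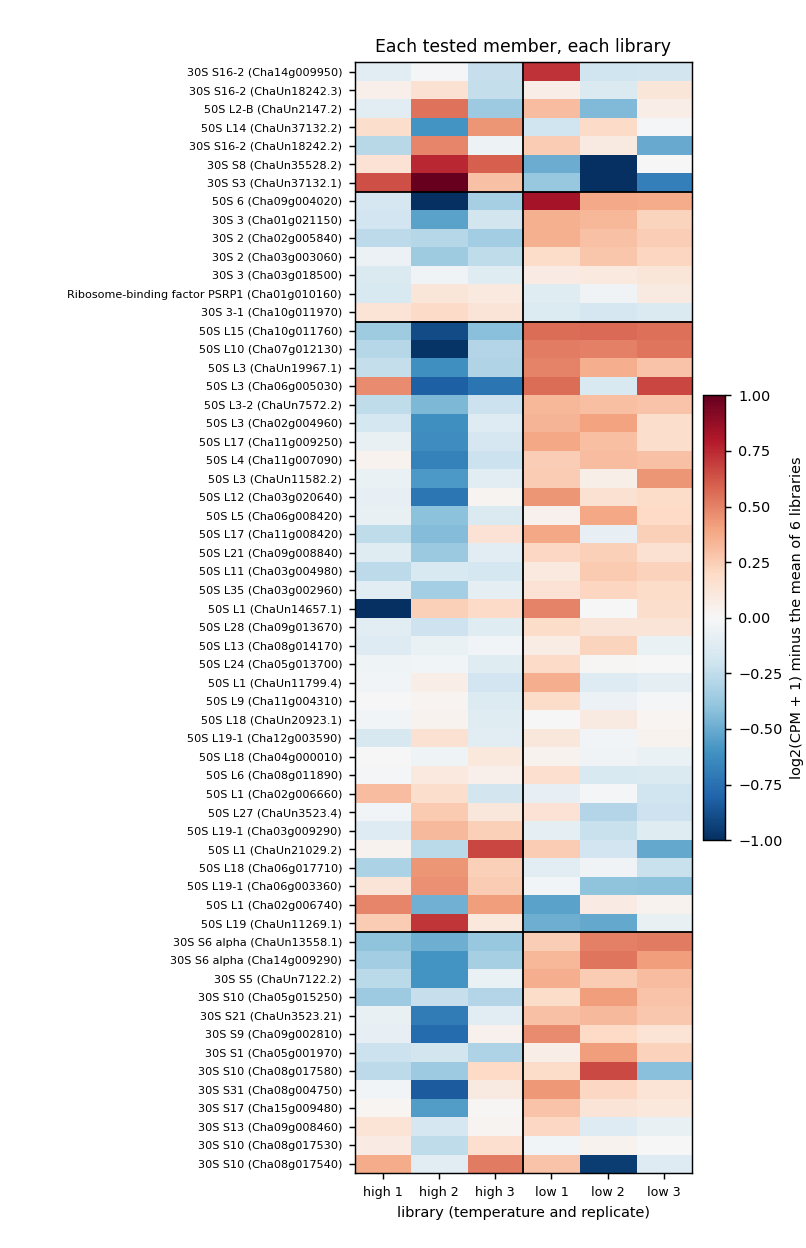
Each tested member (rows, in the order of the plot of changes) in each library (columns), as log2(CPM + 1) minus the member's mean over 6 libraries. Colours are capped at -1 and 1, and black lines separate the classes. The column of high-temperature replicate 2 is the darkest blue in many nuclear-encoded members and red in S3 and S8.

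High-temperature replicate 2 had the lowest level of its group in 33 of the 60 tested members, including 16 of the 20 that rose, and the highest in 24. Its TMM factor was 1.10, against 0.966 to 1.00 in the other libraries. The other high-temperature libraries summed to 5083 and 5112 CPM over the members without plastid-encoded kinds, against 4248 CPM in replicate 2 and 6271 to 6705 CPM in the cold. The median over all members was 0.28 without replicate 2 and 0.34 with it, and 0.24 without low-temperature replicate 1. With library totals as the only scaling, 19 members rose and 2 fell, around a median of 0.29.

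Several calls were lost when 1 library was left out, mostly with little change in fold. Without low-temperature replicate 2, the adjusted p of edgeR was 0.145 for S1, 0.073 for S21, 0.064 for L17, 0.096 for L4, 0.159 for L11, 0.14 for L21, 0.0967 for protein 2 (Cha03g003060), 0.0593 for L3 (ChaUn11582.2) and 0.0574 for L3 (Cha02g004960). The log2 changes were then 0.57 for L17, 0.54 for L4, 0.56 for S21 and 0.40 for S1. Without low-temperature replicate 3 it was 0.0858 for S1, 0.0566 for S21, 0.0897 for L4, 0.152 for L11, 0.102 for L21, 0.077 for protein 2 (Cha03g003060) and 0.212 for L3 (ChaUn11582.2). Most of these genes lost their call under several omissions, and Cha02g004960 lost it only without low-temperature replicate 2, whereas L15, L10, S6 alpha, L3-2, S5, S10 and plastid-specific protein 6 kept theirs whichever library was left out.

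Several proteins are named by more than 1 gene model, 12 names with 36 models in all, so reads could be split between copies. With counts summed per name before the fit, 15 of 40 names tested rose and 2 fell. Copies of 1 name differed widely in level. The most abundant copy of S6 alpha held 85.4% to 87.0% of the reads of that name over the 6 libraries, that of L17 94.0% to 96.3%, and that of L1 only 17.9% to 42.1%. Outside the plastid-encoded kinds, 18 of 37 models with a mean of at least 30 CPM rose (48.6%, median change 0.46). Of 16 tested below that level 2 rose (12.5%, median change -0.11). Over all gene models tested, of any level, 9.27% were called higher. The level was chosen after the values were seen. The difference between the shares of these members was not tested.

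The summed level of each of the other 3 classes was higher in every cold library than in any warm one. Nuclear-encoded 30S models had 1701 ± 275 CPM in the warm and 2357 ± 77.8 CPM in the cold, a ratio of 1.39. For nuclear-encoded 50S models the sums were 2624 ± 180 and 3441 ± 97.8 CPM, a ratio of 1.31, and for plastid-specific models 488 ± 37.8 and 686 ± 48.3 CPM, a ratio of 1.40. The 30S sum was 67.9%, 57.3% and 68.5% of the 50S sum in the warm libraries and 68.5%, 69.0% and 68.0% in the cold ones. Apart from high-temperature replicate 2, this ratio of summed levels lay between 67.9% and 69.0% in every library. Abundant genes weigh heavily in it. S17 alone held 613 of the 1846 CPM of the 30S sum in high-temperature replicate 1 and 410 of the 1385 CPM in high-temperature replicate 2.

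**Figure D4:**
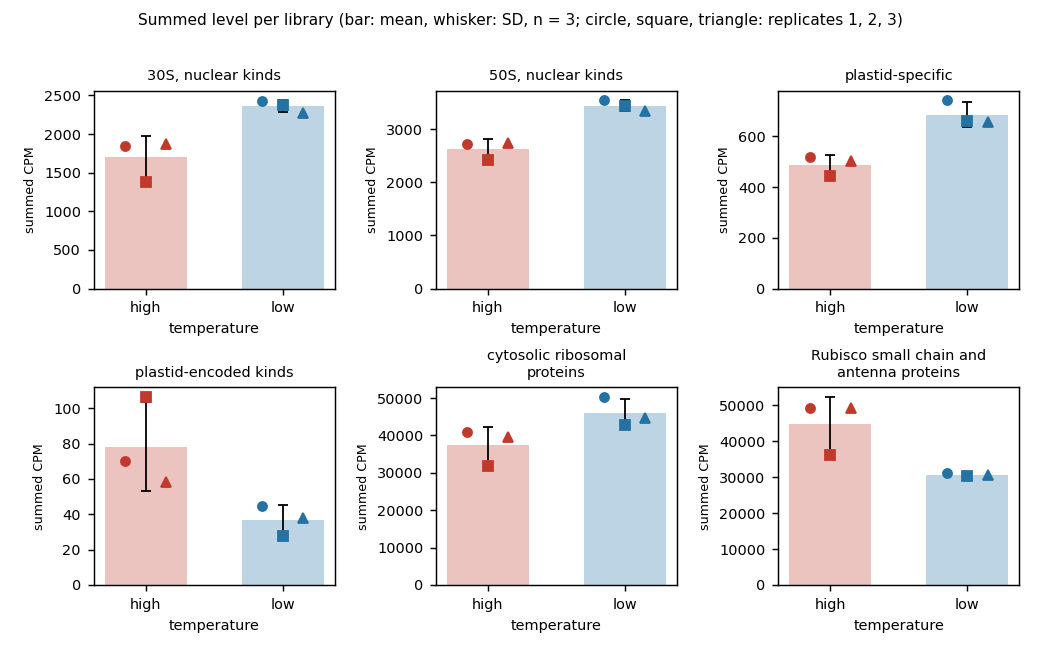
Summed TMM-scaled CPM per library (points, shape by replicate) with the group mean (bar) and SD (whisker, n = 3) for the 4 classes of members, for cytosolic ribosomal proteins and for the green-leaf markers. The first 3 panels and the cytosolic panel are higher at low temperature, and the plastid-encoded kinds and the green-leaf markers are lower. The fall in the panel of plastid-encoded kinds is mostly that of S3.

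Genes that work with the plastid ribosome were counted from 4 lists matched by protein name. Ribosome assembly and RNA processing had 4 of 11 tested models that rose (36.4%, against a background of 9.27%) and none that fell. The 2 models of DEAD-box RNA helicase 3, which in Arabidopsis acts in plastid intron splicing and 50S assembly, both rose. Cha02g011470 (sequence 2, 123368212 to 123374894, plus strand) had 141, 147 and 174 CPM in the warm and 311, 346 and 334 CPM in the cold, a change of 1.10 ± 0.14 (edgeR, adjusted p = 5.31e-05). ChaUn6272.4 had 49.9, 39.5 and 53.6 CPM against 99.3, 124 and 123.5 CPM (1.28 ± 0.15). The groups were far apart in both. The remaining rises were RNC1, a plastid intron splicing factor in maize, and a probable ribosome-binding factor A, whose bacterial counterpart binds the 30S subunit during assembly. They fall outside the naming rule and are named to complete the count.

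Translation factors had 2 of 14 that rose (14.3%) and 1 that fell (7.14%), against 9.27% and 9.65% over all gene models tested. A model of elongation factor G-2 (Cha14g006950), which moves the ribosome along the message, rose from 88.3 ± 17.8 to 146 ± 11.2 CPM. A model of initiation factor IF-2 (Cha08g013540) rose from 98.5 ± 15.9 to 143 ± 13.7 CPM. Elongation factor G-2 is named by 3 models and IF-2 by 2, and no other model of either name was called. The call of IF-2 held in 10 of 15 alternatives, with an adjusted p of 0.0884 without low-temperature replicate 2. Of 2 models named elongation factor Tu, which brings aminoacyl-tRNA to the ribosome, 1 (Cha03g021080) fell from 18.4 ± 3.33 to 11.3 ± 1.98 CPM. Its call held in 11 of 15, with an edgeR adjusted p of 0.108 without low-temperature replicate 2. Aminoacyl-tRNA ligases, which charge tRNAs and in Arabidopsis mostly serve both organelles, had 5 of 30 that rose (16.7%) and none that fell. The rises were led by those for lysine (ChaUn9426.3, 39.02 ± 4.55 to 66.9 ± 8.78 CPM) and proline (Cha08g001950, 21.2 ± 2.61 to 37.9 ± 4.73 CPM). In plastid transcription none of 6 tested models was called by edgeR. Over the 4 lists together 11 of 61 rose, which is 18.0% against the background of 9.27%, and 1 fell (1.64% against 9.65%).

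Among ribosomal proteins of the cytosol, 42 of 189 tested models rose and 4 fell, with a median of 0.27. The share that rose was 22.2% and the share that fell 2.12%, against 9.27% and 9.65% over all gene models tested. Of the plastid members 33.3% rose, and the difference between the 2 lists was not tested. The cytosolic counts depended on single libraries, with 14 to 52 that rose and 0 to 10 that fell when 1 library was left out. The smallest p among the rises was that of 60S protein L27a-3 (Cha10g013910, 1 of 3 models of that name), which went from 46.7 ± 8.58 to 95.7 ± 15.7 CPM. Among the falls it was that of a 60S protein L34 (Cha06g017670), from 209 ± 8.27 to 148 ± 24.1 CPM. The L34 call was kept in 8 of 15 alternatives, with an edgeR adjusted p of 0.166 without low-temperature replicate 2. The summed level of the plastid members was 12.6%, 13.6% and 13.0% of that of the cytosolic ones in the warm libraries and 13.4%, 15.2% and 14.1% in the cold ones. These ranges overlapped.

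Mitochondrial ribosomal proteins had 3 of 20 that rose (15%) and 4 that fell (20%), with a median of -0.09. Over all gene models tested, 9.27% were called higher and 9.65% lower. L47 (ChaUn7303.4, 1 of 2 models of that name) rose from 23.4 ± 2.30 to 36.7 ± 3.04 CPM. S4 (ChaUn2147.99), which lies on the same assembly sequence as the L2-B member, fell from 8.08 ± 2.68 to 1.03 ± 0.671 CPM. A further 26 models are named 30S or 50S with neither organelle in the name. Of 25 tested 1 rose and 1 fell (4% each), with a median of 0.10.

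**Figure D5:**
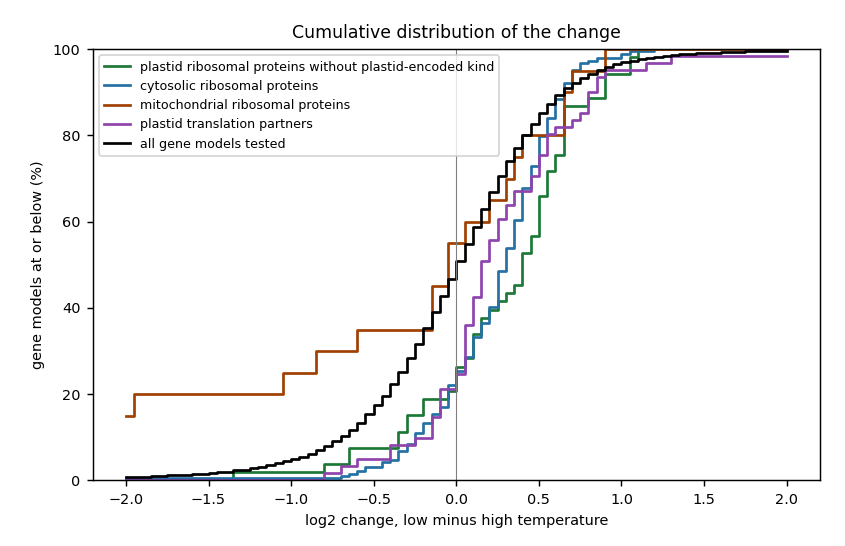
Percentage of gene models (y axis) at or below each log2 change (x axis) for plastid ribosomal proteins without plastid-encoded kinds, 3 comparison lists and all 26767 gene models tested. The mitochondrial list was not sorted by coding genome in this way, and it keeps the S4 model on the assembly sequence of L2-B. The curves of plastid and cytosolic ribosomal proteins lie to the right of that of all gene models over most of the range around 0, and that of mitochondrial ribosomal proteins starts above it on the left, where 4 of 20 fell.

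Marker lists of cell types the shoots could hold were summed in the same way. The background over all gene models tested was 9.27% called higher and 9.65% called lower. Rubisco small chain and chlorophyll-binding antenna genes, used as the green-leaf list, had 14 of 23 tested models that fell (60.9%) and 1 that rose (4.35%). In bulk RNA this fall cannot be split between fewer green cells and less of this RNA per cell. The sum of the list was 36132 to 49251 CPM in the warm and 30213 to 31190 CPM in the cold. In high-temperature replicate 2 it was 36132 CPM, nearest to the cold libraries, while the same library was farthest from them for the nuclear-encoded members. Dividing-cell cyclins and B-type kinases had 3 of 16 that fell (18.8%) and 1 that rose (6.25%). Their sums were 928 to 974 CPM against 733 to 784 CPM, and 1 cyclin-A2-1 model had no count. Vascular markers summed to 208 to 219 CPM against 231 to 254 CPM, with 1 of 13 that rose (7.69%) and 1 sieve element occlusion model without a count. Epidermal markers (4 of 28 rose, 14.3%, and 2 fell, 7.14%) and pollen-named genes (2 of 8 rose, 25%) had sums that overlapped between groups. The 4 root-named models summed to 110 to 127 CPM against 166 to 202 CPM, and 1 of the 2 tested rose. The part of these marker shifts in the changes of the ribosomal protein genes was not tested.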

How the data were processed

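RNA levels were read from 6 libraries, 3 per temperature, grouped by their titles. The authors deposited raw counts per gene model and, for the same models, FPKM values. The submitters' processing notes name featureCounts 1.5.0-p3 and HISAT2 2.0.5, and the notes also list fastp, R 4.1.0, CASAVA 1.8.2 and DESeq2 1.20.0, with no roles. The genome build and the strand setting were not given in the sources used here. Coordinates are those of the deposited tables, on numbered assembly sequences. FPKM equal count over gene length and 1 divisor per library, which was 1.13 times the total in high-temperature replicate 2 and 0.977 to 1.01 times elsewhere. Every one of the 65 member lengths divides by 3, and lengths are therefore called coding lengths. None of the member identifiers was found in the reference gene table at hand.

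The deposited counts went into edgeR 4.0.16 under R 4.3.3 (TMM, filterByExpr with a minimum count of 10, robust quasi-likelihood fit, group only) and adjusted by Benjamini-Hochberg over all gene models tested; the steps were tested on simulated data. Alternatives were other scalings and filters, DESeq2 1.42.0, limma 3.58.1 on log2 FPKM (pseudocount 1 or 0.1, mean FPKM of at least 0.5 or no such filter), a replicate block, an adjusted p under 0.01, counts summed per name and each library left out. The 15 alternatives counted per member exclude summing and the stricter threshold. The filter of at least 1 CPM in 3 libraries kept 55 members, so some members of low level have 14. Members and lists were chosen with earlier results of these data known. Named were the 12 called members with the smallest p in each direction, the 2 with the highest FPKM per class, the extremes, all plastid-specific members and the leading partners; other members were named to account for them. Floors of 3 counts cover counting error only.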

Additional observations from a re-analysis of the deposited data

How the results depend on the processing

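Over all gene models, 2480 rose and 2582 fell. With unfiltered FPKM in limma these were 1385 and 1482, at an adjusted p under 0.01 1178 and 1245, and with 1 library left out 1267 to 2892 and 1337 to 2729. Of the plastid ribosomal protein genes 20 rose and 2 fell, against 12 and 1 with unfiltered FPKM, 12 and 1 at the stricter threshold, and 11 to 20 and 1 to 2 with 1 library left out. Without plastid-encoded kinds 0 fell. Of the 20 members, 11 rose in each of 15 alternatives. The median of 0.34 ranged from 0.24 to 0.41 with 1 library left out. For nuclear-encoded 50S models 10 rose, against 6 with filtered FPKM at either pseudocount, 5 with unfiltered FPKM, 5 at the stricter threshold and 4 to 10 with 1 library left out. For plastid-encoded kinds 2 fell, against 1 with unfiltered FPKM, 1 at the stricter threshold and 1 to 2 with 1 library left out. Of the partner genes 11 rose and 1 fell. At the stricter threshold 7 and 0 did, with unfiltered FPKM 0 fell, and with 1 library left out 7 to 12 rose and 0 to 2 fell. Of the cytosolic genes 42 rose and 4 fell. With filtered FPKM 24 rose at either pseudocount and 1 (pseudocount 1) or 0 (pseudocount 0.1) fell, with unfiltered FPKM 15 rose and 1 fell, at the stricter threshold 13 rose and 0 fell, by library totals 7 fell, and with 1 library left out 14 to 52 rose and 0 to 10 fell. Of the mitochondrial genes 4 fell, against 2 with a pseudocount of 0.1, 2 with unfiltered FPKM, 1 at the stricter threshold and 1 to 3 with 1 library left out. The cause of these shifts was not tested.

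Among the genes named by rule, the direction turned for 2, neither of them called; the other members were not tabulated for this. The change of PSRP1 (Cha01g010160) was between -0.129 and 0.00617 with 1 library left out, above 0 without replicate 2 of the warm or replicate 1 of the cold group. That of S16-2 (ChaUn18242.3) was -0.0281 by library totals and between -0.0888 and 0.115 with 1 library left out, below 0 without replicate 3 of the warm or replicate 1 or 3 of the cold group. The replicate block gave 20 members that rose and 2 that fell. Deviations from the group mean correlated at -0.02, 0.05 and -0.01 between same-numbered libraries. Between libraries of different numbers they correlated at -0.04 to 0.06. No pairing by number was seen, and so few libraries cannot exclude it.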
